A study of Homo sapiens with 14 samples.

Results

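To describe NF-κB recruitment at the genes of the RUNX transcription factors and of ETV6, the ChIP-seq regions assigned to RUNX1, RUNX3 and ETV6 were examined in L1236 cells. L1236 is an established line of Hodgkin lymphoma cells, in which NF-κB is constitutively active. Their chromatin was immunoprecipitated with antibodies against the NF-κB subunits p50, p52, RelA or RelB, in 2 replicates per subunit, and 6 libraries of input DNA served as background. All 14 libraries come from this single line, and the labels name no treatment. A different antibody was used for each p52 replicate, whereas the same antibody was used for both replicates of each other subunit. A region was taken as a member when the deposited closest gene or closest transcription start site (TSS), searched within 1 Mb, was ENSG00000159216 (RUNX1), ENSG00000020633 (RUNX3) or ENSG00000139083 (ETV6). This applied to 24 of the 14865 regions in which at least 1 subunit was called, namely 8 regions of RUNX1, 11 of RUNX3 and 5 of ETV6. The deposited table holds no expression values, so the measurements concern recruitment of the subunits to DNA and not the activity of the genes.

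RUNX1 and RUNX3 are transcription factors that bind DNA through the conserved Runt domain together with the partner CBFβ, and they govern the development of blood stem cells and lymphocytes. Depending on the site they recruit coactivators such as EP300 or corepressors of the TLE family, and each RUNX gene is transcribed from a distal and a proximal promoter. ETV6 is a transcriptional repressor of the ETS family that is needed for blood cell formation, and ETV6 and RUNX1 are joined by a chromosomal translocation in childhood acute lymphoblastic leukemia. The NF-κB subunits p50 and p52 bind DNA but carry no transactivation domain, which is contributed by partners such as RelA and RelB. Canonical signaling is typically carried by p50 with RelA and non-canonical signaling by p52 with RelB.

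The promoters of the 3 genes are shown first, to give the sequence at the annotated starts of their transcripts. The distances given further on are to the TSS of the deposited hg18 annotation and not to these windows. RefSeq windows on GRCh38.p14, from 250 bases before to 50 bases after the annotated start, were matched by symbol for 3 of 3 genes and comprised 4 windows, with a single window for RUNX1 and for ETV6 and 2 for RUNX3. The ChIP-seq regions are on hg18, and the windows were therefore not placed onto them. A window and the deposited TSS of the same gene may thus belong to different promoters. Capitals mark matches to the core RUNX element TGTGGT, read on either strand (ACCACA is its reverse complement), and to the ETS element CCGGAA, likewise read on either strand. The windows are listed 5′ to 3′ on the strand of the gene, with RUNX1 at chr21:34888650-34888949 (minus strand), the upstream window of RUNX3 at chr1:24964961-24965260 (minus strand) and ETV6 at chr12:11649424-11649723 (plus strand).
RUNX1: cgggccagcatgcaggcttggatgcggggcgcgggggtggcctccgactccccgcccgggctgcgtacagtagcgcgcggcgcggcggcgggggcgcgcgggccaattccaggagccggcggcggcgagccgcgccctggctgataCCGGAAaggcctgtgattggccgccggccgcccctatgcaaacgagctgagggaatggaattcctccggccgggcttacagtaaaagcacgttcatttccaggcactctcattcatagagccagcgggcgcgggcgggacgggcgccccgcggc
RUNX3: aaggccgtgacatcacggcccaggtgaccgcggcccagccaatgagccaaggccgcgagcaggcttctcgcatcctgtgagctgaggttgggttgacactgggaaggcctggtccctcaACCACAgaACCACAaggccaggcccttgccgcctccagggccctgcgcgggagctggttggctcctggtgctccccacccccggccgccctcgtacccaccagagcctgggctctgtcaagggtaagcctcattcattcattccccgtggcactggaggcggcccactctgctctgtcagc
ETV6: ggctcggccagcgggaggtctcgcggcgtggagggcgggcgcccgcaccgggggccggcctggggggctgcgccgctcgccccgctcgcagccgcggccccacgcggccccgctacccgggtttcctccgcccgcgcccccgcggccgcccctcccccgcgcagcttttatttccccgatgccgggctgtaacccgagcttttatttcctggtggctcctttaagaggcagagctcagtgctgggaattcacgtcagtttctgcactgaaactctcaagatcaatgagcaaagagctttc

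The upstream RUNX3 window held 2 matches to the RUNX core, at bases 120 to 125 and 128 to 133 of the window, that is 131 and 123 bases before the start. The RUNX1 window held a single ETS match, at bases 147 to 152. The ETV6 window and the second RUNX3 window, at chr1:24930227-24930526, contained neither. Among 35116 windows of the same length, 13.1% held the RUNX core and 17.2% the ETS element. No match to the consensus κB element was present in any of the 4 windows, and 7.73% of all windows held one. These letters describe the windows only, and binding was not measured from them. The GC content of the windows was 72% for RUNX1, 66.3% and 76% for RUNX3 and 69% for ETV6, against a median of 58.7% over all windows.

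Most calls in the 24 regions were for p52 and p50. Of these regions, 19 were called for p52, against 73.3% of the 14865 regions, and 16 were called for p50, against 73.8%. RelB was called in 9 regions, against 26.8%, and RelA in 0 regions, against 3.31%. Both p50 and p52 were called in 13 regions, or 54.2%, against 51.4%. The shares for p50, p52 and both thus lay near those of the whole set. Each call had passed an irreproducible discovery rate (IDR) below 0.05 between the 2 replicates. It had also passed a false discovery rate (FDR) below 0.05 on the merged replicates. A call is a single outcome per subunit and region without a replicate error, and the counts were not tested. Under a stricter IDR limit of 0.001, chosen after seeing the data, RelB was called in 3 of 17 remaining regions. The share over all regions at that limit was not computed.

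The 3 genes differed in which subunits were called. At RUNX1, all 8 regions were called for p52, 3 for p50 and 2 for RelB. At RUNX3, 10 of 11 regions were called for p50, 9 for p52 and 3 for RelB. At ETV6, 4 of 5 regions were called for RelB, 3 for p50 and 2 for p52. The orders depended on the settings. With an IDR limit of 0.001, RelB was called in 1 of 3 remaining ETV6 regions, p50 in 3 and p52 in 2, and at RUNX3 p50 and p52 were each called in 8 of 9 remaining regions. Shares over all regions at this limit were not computed. RelB and p50 were also equal at ETV6, with 3 regions each, by closest TSS alone and where an enrichment of 5 or more was required. The order at RUNX1 depended on the assignment, since by closest TSS alone p52 was called in 4 regions, RelB in 2 and p50 in 1, and by closest gene alone RelB was called in 0. These orders are descriptions of few regions, and regions of a gene are not replicates of each other.

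Looking at combinations, p50 with p52 and no other subunit was the most frequent class, with 8 regions (2 of RUNX1, 5 of RUNX3, 1 of ETV6), against 31.8% of all regions. The class of p50, p52 and RelB had 5 regions (1 of RUNX1, 3 of RUNX3, 1 of ETV6), against 17.1%. Recruitment of p52 alone was called in 5 regions, 4 of them at RUNX1, against 19.8%. Recruitment of p50 alone was called in 2 regions, both at RUNX3, against 21.2%. RelB alone was called in 2 regions, both at ETV6, against 3.83%. A single ETV6 region held p50 with RelB, against 1.02%. A single RUNX1 region held p52 with RelB, the combination of the prototypic non-canonical dimer, against 1.93%. These 2 labels rest on the call threshold. The uncalled p50 of the RUNX1 region had 59.8 reads per kb, against a 5th percentile of 59.5 for called p50 regions. The uncalled p52 of the ETV6 region had 56.5, against 55.6 for called p52 regions.

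**Figure D1:**
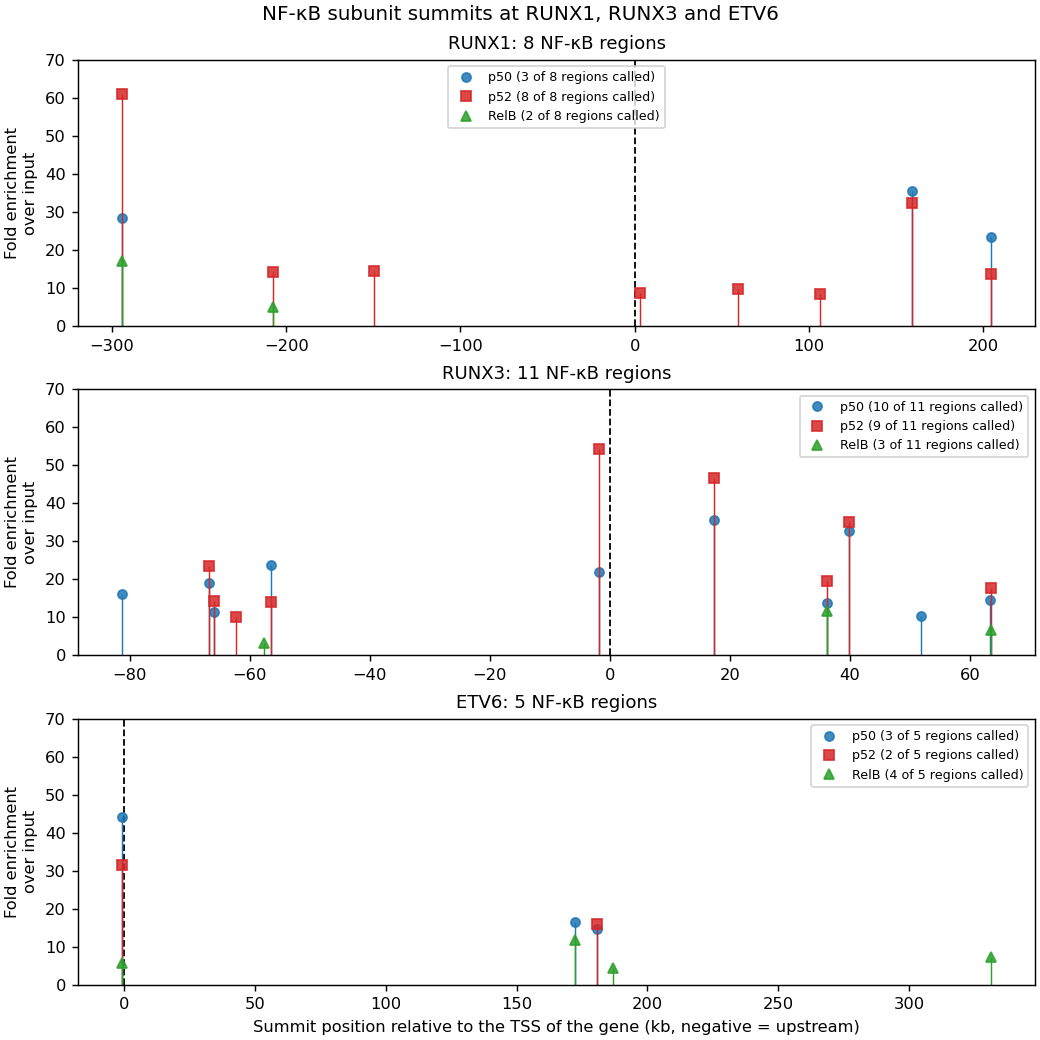
Fold enrichment over input (vertical axis) of p50, p52 and RelB at their summits, plotted against the distance of the summit from the TSS of RUNX1, RUNX3 or ETV6 in kb, with upstream positions negative and the dashed line at the TSS. Each marker is a called subunit in a region from merged replicates; the highest p52 markers are the RUNX1 region 292.936 kb upstream, at 61.0, and the RUNX3 region 1.029 kb upstream, at 54.4.

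The positions of the regions relative to the TSS were as follows. On hg18, the deposited distances place the TSS of RUNX1 at position 35343511 of chromosome 21 (minus strand), that of RUNX3 at position 25164088 of chromosome 1 (minus strand) and that of ETV6 at position 11694055 of chromosome 12 (plus strand). The median distance of the 24 regions to their closest TSS of any gene was 65.9 kb, against 21.5 kb for all regions with an assigned TSS. Only 3 of 24 regions (12.5%) were within 10 kb of the closest TSS, against 37.4%, whereas 17 (70.8%) were beyond 50 kb, against 31.6%. These distances use a single TSS per gene. A region at another promoter of RUNX1 or RUNX3 would therefore count as distant, and how many do so was not determined. In contrast, the share within an annotated gene was 14 of 24 (58.3%), against 58.2%. The number of assigned regions was high, with a median of 1 region over the 8450 genes that had any. Only 51 genes had more regions than RUNX3, 141 had more than RUNX1 and 454 had more than ETV6.

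RUNX1 was covered by regions over 499.888 kb, with 5 within the gene and 3 far upstream. The upstream regions were assigned to RUNX1 by the closest TSS alone, because another Ensembl gene was closer, and 4 of the 5 intragenic regions were assigned by the closest gene alone, because another TSS was closer. The highest p52 fold enrichment at any of the 3 genes was found in the most distant RUNX1 region, at chr21:35636447-35638393, 292.936 kb upstream. Its fold enrichment was 61.0 for p52, 28.5 for p50 and 17.1 for RelB, also the highest RelB value among the 24 regions. The p52 value ranked 240 among the 10893 p52 regions, and the p50 value ranked 2122 among the 10975 p50 regions. The summits of the 3 subunits lay within 41 bp of each other. The region held 457 p52 reads and 165 p50 reads, a p52 share of 73.5% (Wilson 95% confidence interval 69.9% to 76.8%, counting error only), compared with 52.3% over all regions.

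Within RUNX1, the region at chr21:35182591-35184782, 158.729 kb downstream of the TSS, had the highest p50 enrichment of the gene, with 35.5 for p50 and 32.3 for p52. The summits of p50 and p52 fell on the same base. The printed RUNX1 window was not placed on hg18, so whether this region lies at that promoter is not known. The region at chr21:35138506-35139393, 204.118 kb downstream, had a higher value for p50, at 23.5, than for p52, at 13.7. Here the p52 share of reads was 37.7% (31.6% to 44.2%). The p52-to-p50 balance of the RUNX1 regions called for both subunits ran from 73.5% to 37.7% p52 reads. The intervals of the most distant upstream and the most distant downstream region did not overlap, but they cover counting error only. Neither region passed the test on replicate values given further on.

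The remaining RUNX1 regions were called for p52 without p50. The region closest to the TSS, at chr21:35339788-35340703 and 2.808 kb downstream, had a p52 enrichment of 8.58, which is low among p52 regions (rank 10475 of 10893). The intragenic regions 59.103 kb and 105.75 kb downstream were similar, with 9.73 and 8.43. The upstream regions at 149.663 kb and 207.033 kb had a p52 enrichment of 14.5 and 14.3. At the latter, RelB was also called, with an enrichment of 4.99 and a summit 1 bp from that of p52. The 3 intragenic p52-only calls had IDR values of 0.00389 to 0.00661, the highest p52 values among the 19 p52 calls, and none of the 3 passed an IDR limit of 0.001, which was chosen after seeing the data.

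RUNX3 carried the most regions, 11 within 145.6 kb, and all of them had RUNX3 as both closest gene and closest TSS. They fell into a gene-body group of 5 regions, a single region next to the TSS, and a far upstream group of 5 regions that spanned 25.502 kb and began 56.161 kb from the TSS. The region next to the TSS, at chr1:25165117-25166832 and 1.029 kb upstream, had the highest p52 enrichment of the gene, 54.4, ranking 421 of 10893. Its p50 enrichment was 21.9, ranking 3592 of 10975. The p52 share of its 439 p52 and 220 p50 reads was 66.6% (62.9% to 70.1%). The summits lay 1786 bp (p50) and 1792 bp (p52) upstream of the TSS, and RelB and RelA were not called, with 34 and 22 reads.

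In the gene body of RUNX3, the highest p50 enrichment was 35.6, in the region at chr1:25146128-25147516 located 16.572 kb downstream, where p52 reached 46.6. The region 39.485 kb downstream, at chr1:25123863-25124603, had 35.0 for p52 and 32.6 for p50, with summits 1 bp apart. It also had the highest read density of the 24 regions, with 333 p52 and 304 p50 reads per kb. RelB was not called there, although its density of 58.0 reads per kb was the highest RelB density among the 24 regions and above the median of 44.1 for called RelB regions. RelB was instead called in the neighbouring region, 35.002 kb downstream at chr1:25126531-25129086, with an enrichment of 11.6, against 19.5 for p52 and 13.8 for p50. The second RUNX3 window was not placed on hg18, so whether this neighbouring region lies at that promoter is not known. RelB was further called 63.051 kb downstream, with 6.57 against 17.8 for p52 and 14.6 for p50. A p50-only region 51.618 kb downstream had an enrichment of 10.5 and an IDR of 0.00953, the highest IDR among the members.

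The upstream group of RUNX3 began with the region at chr1:25220249-25222786, where p50 reached 23.8 and p52 14.0. RelB was called in this region with an enrichment of 3.16, the lowest among the members (rank 3972 of 3984). Its summit lay 1112 bp from the p50 summit, whereas the p50 and p52 summits were 27 bp apart. Further upstream, a p52-only region at 61.802 kb had an enrichment of 10.2, with 75.1 p50 reads per kb although p50 was not called. The regions at 65.445 kb and 66.391 kb were separated by only 128 bp and both held p50 and p52, with a p52 enrichment of 14.3 and 23.4 and a p50 enrichment of 11.3 and 18.9. A p50-only region with an enrichment of 16.1 lay at 81.069 kb.

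ETV6 had the only region that overlapped the single TSS per gene of the deposited hg18 annotation, and other promoters of RUNX1 and RUNX3 were not placed against the regions. It extended over chr12:11692789-11694676 and recruited p50 with an enrichment of 44.1, the highest p50 value among the 24 regions (rank 521 of 10975). The p52 enrichment was 31.6 and the RelB enrichment 5.68. The summits of p50, p52 and RelB were 825 bp, 779 bp and 833 bp upstream of the TSS, and the p52 share of reads was 45.2% (41.0% to 49.4%). Replicate values for p52 diverged here, with signal values of 153 and 1220, that is 3.00 on the log2 scale. Over all 10893 p52 regions the second signal value exceeded the first by a median of 0.98 (SD 0.73), and no other p52 member had a larger difference. The p50 signal values were 713 and 744.

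A cluster of 3 ETV6 regions lay within 15.059 kb in the gene body, beginning 171.777 kb downstream of the TSS. The first, at chr12:11865832-11866911, was called for p50 at 16.6 and RelB at 11.6, with summits 2 bp apart, and it had the highest RelB enrichment of the gene. It was not called for p52, with 61 p52 reads against 114 p50 reads. The second, 180.112 kb downstream, was called for p50 at 14.7 and p52 at 16.0. The third, at chr12:11880481-11880890, was called for RelB alone at 4.50, with signal values of 88.7 and 73.2. Its p50 density of 97.6 reads per kb was, however, the highest among the member regions without a p50 call and close to the median of 106 reads per kb for p50 regions. The other RelB-only region, at chr12:12025192-12026003, lay 85604 bp beyond the ETV6 gene and had an enrichment of 7.24, with signal values of 277 and 52.02. Its closest TSS was that of BCL2L14, which encodes a member of the BCL2 family.

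**Figure D2:**
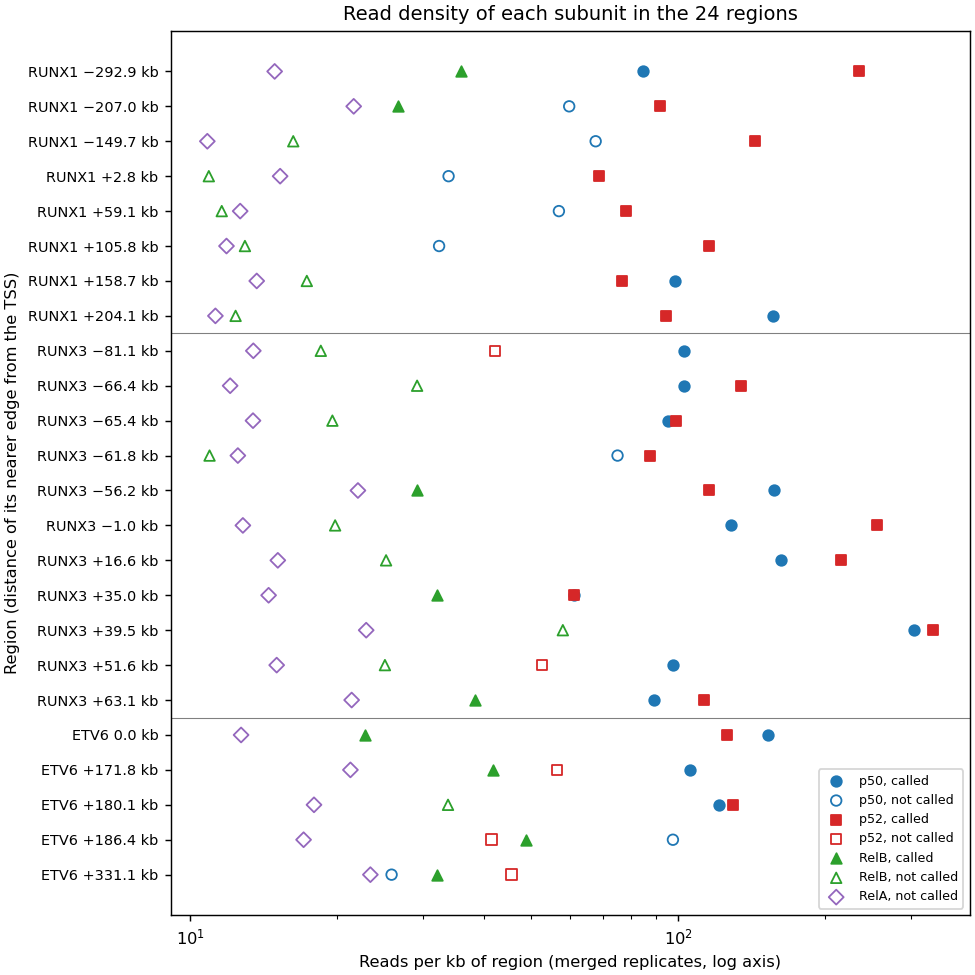
Reads per kb (horizontal log axis, merged replicates) of p50, p52, RelB and RelA in each of the 24 regions, which are ordered by gene and by the distance of the nearer edge from the TSS. Filled markers are called and open markers are not called; RelA is open throughout, between 10.8 and 23.4 reads per kb.

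Since a call depends on thresholds, read densities were examined where a subunit had not been called. The 5th percentile of called p50 regions was 59.5 reads per kb, and 4 of the 8 member regions without a p50 call were at or above it, against 30.9% of all regions without a p50 call. For p52 the 5th percentile was 55.6 reads per kb, and 1 of 5 was at or above it, against 30.5%. For RelB it was 22.5 reads per kb, with 5 of 15 at or above it, against 27.3%. A missing call thus did not always go with a low read density.

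RelA was not called at any of the 3 genes. Its density in the 24 regions ranged from 10.8 to 23.4 reads per kb with a median of 14.7, close to the median of 15.3 for regions without a RelA call and below the median of 38.4 for called regions. In 2 of the 24 regions the density was at or above the 5th percentile of called regions (22.3 reads per kb), against 20.3% of uncalled regions. The RelA and RelB reads were fewer, with 315151 and 470788 reads over all 14865 regions, compared with 1654137 for p50 and 1810792 for p52. Reads within the regions reflect both depth and enrichment, and the part of each was not tested.

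Next, it was asked whether p52 and p50 were recruited in equal measure to the 13 regions called for both. The ratio of p52 to p50 fold enrichment favored p52 in 9 regions and p50 in 4, where 56.8% of the 7643 regions called for both favored p52. The ratio had a median of 0.29 on the log2 scale, against 0.12 over all regions called for both. The median was 0.32 for the 8 RUNX3 regions, -0.14 for the 3 RUNX1 regions and -0.18 for the 2 ETV6 regions. With read counts scaled to the total of each subunit in place of fold enrichment, the median over the 13 regions turned to -0.03. The values ranged from -0.78 at the RUNX1 region 204.118 kb downstream to 1.32 at the RUNX3 region next to the TSS. The summits of p50 and p52 were a median of 12 bp apart, against 11 bp over all shared regions, and 11 of 13 pairs were within 50 bp (84.6%, against 88.1%).

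**Figure D3:**
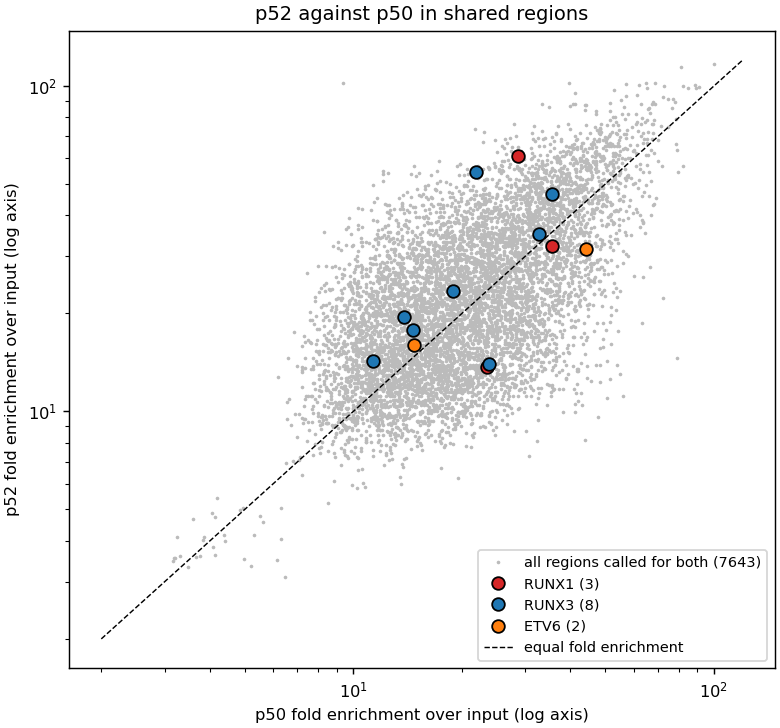
Fold enrichment over input of p52 (vertical log axis) against p50 (horizontal log axis), with grey points for the 7643 regions called for both subunits and colored points for the 13 regions of RUNX1, RUNX3 and ETV6. Points above the dashed line have a higher p52 value, and 9 of the 13 regions lie above it, as do 56.8% of the grey points.

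The signal values are the only values per replicate in the deposited table of regions, and they were used to test this balance. Each column of signal values was centred on its median, so that the test asks whether a region leans toward a subunit more than the median region does. Of 7643 regions tested with limma, 4.42% were higher for p52 and 4.7% higher for p50 at an adjusted p below 0.05 (Benjamini-Hochberg over all 7643). Of the 13 member regions, 1 was higher for p52 and 0 were higher for p50, and 4 had an unadjusted p below 0.05, against 29.5% of all regions tested.

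The member region past the threshold was that next to the RUNX3 TSS, with p52 signal values of 1044 and 3123 and p50 signal values of 679 and 542. After centring, both p52 values (1.87 and 2.43) were above both p50 values (0.43 and 0.37), without overlap. The log2 difference was 1.75 (SE 0.44, limma adjusted p = 0.0360). The call was lost when the second p52 value was left out (difference 1.46, limma adjusted p = 0.118) and kept without the first (2.03, limma adjusted p = 0.0311). Without either p50 value the difference was 1.78 and 1.72 (limma adjusted p = 0.143 and 0.129), in fits that called 0 of the 7643 regions. It was also lost under quantile normalization.

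The RUNX1 region 204.118 kb downstream leaned toward p50. Its p50 signal values were 923 and 667 and its p52 signal values 197 and 309, and the centred values of the 2 subunits did not overlap. The log2 difference of -1.50 (SE 0.43, limma adjusted p = 0.0506) did not pass the threshold. The strongest RUNX1 region, 292.936 kb upstream, had p52 signal values of 820 and 2799 and p50 signal values of 727 and 814. Its log2 difference of 1.15 (SE 0.46, limma adjusted p = 0.121) did not pass either, nor did that of the first upstream RUNX3 region (-1.05, SE 0.45, limma adjusted p = 0.148). At the ETV6 TSS the p52 values lay on either side of the p50 values, with a difference of -0.58 (SE 0.59, limma adjusted p = 0.546). For p52, the spread between replicates includes a change of antibody, and the effects of the antibody and of the replicate cannot be told apart.

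**Figure D4:**
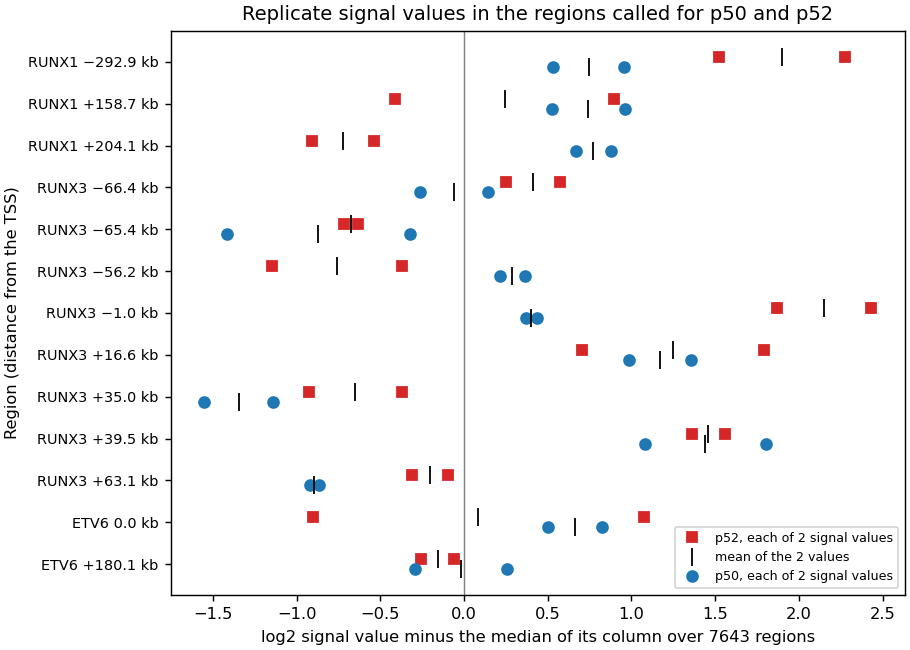
Centred log2 signal values (horizontal axis, log2 value minus the median of its column over 7643 regions) of p52 and p50 in the 13 regions called for both, with each of the 2 values per subunit as a marker and their mean as a black tick. The widest separation between the subunits is at the RUNX3 region 1.029 kb upstream, where p52 is at 1.87 and 2.43 and p50 at 0.43 and 0.37.

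RelB was compared in the same way. Against p52, 3200 regions were tested with limma, of which 3.09% were higher for RelB and 0.562% higher for p52. Of the 6 member regions, 0 were called in either direction and 1 had an unadjusted p below 0.05, against 22.8% of all regions tested. With a fold enrichment of at least 5 for both subunits, 0 of the 3018 regions tested were called in either direction. The overall counts also changed when single signal values were left out. Against p50, 3058 regions were tested, of which 2.09% were higher for RelB and 1.14% higher for p50. Again 0 of 6 member regions were called in either direction, and 2 had an unadjusted p below 0.05, against 25.2% of all regions tested. This count changed when a RelB value was left out, to 1 member higher for RelB and 1 higher for p50 without the first value and to 1 higher for RelB without the second. The regions called overall then rose from 64 and 35 to 318 and 323 without the first value and to 571 and 340 without the second. The largest difference toward RelB was found at the RUNX3 region 35.002 kb downstream, with RelB signal values of 199 and 483 and p50 signal values of 228 and 143. Its log2 difference was 2.05 (SE 0.58, limma adjusted p = 0.0669). A test of the RelB-only regions at ETV6 could not be made, because signal values exist only for called subunits.

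Other genes with a similar composition of subunits were sought among the genes with at least 8 assigned regions, by the Euclidean distance between the percentages of regions called for p50, p52, RelB and RelA. The gene most like RUNX1 was ARHGAP24, at a distance of 6.91 percentage points among 213 genes. It had 11 regions, of which 100% were called for p52, 36.4% for p50 and 18.2% for RelB. For RUNX3 it was ATP2B4, a plasma membrane calcium pump, with the same percentages over the same number of regions. The nearest gene to ETV6 was at 36.1 percentage points among 214 genes. ETV6 itself had only 5 regions, fewer than the 8 required of the compared genes, so genes of its size were left out. Its larger distance is therefore not read as a trait of ETV6. The percentages rest on few regions per gene, and nothing on shared control of the genes follows from them.

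A list of 16 further genes of RUNX and ETV6 function was considered, comprising the RUNX family member RUNX2, the partner CBFB, coactivators, corepressors, the kinase HIPK2 and the related ETS repressors ETV3 and ETV7. Only 1 of these, ETV3, could be matched to an Ensembl identifier here, and the other genes were not analysed. ETV3 had 4 regions, all upstream of its TSS and the nearest at 1657 bp. It was called for p50 and p52 in 2 regions, for p52 alone in 1 region and for p50 alone in 1 region, and for RelB and RelA in 0 regions. The p52 enrichment was 12.9, 21.2 and 14.4, and the p50 enrichment 8.24, 8.50 and 15.1. These maxima were below those of RUNX1, RUNX3 and ETV6 for both subunits.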

How the data were processed

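ChIP-seq of L1236 cells with 2 replicates per NF-κB subunit and 6 input libraries was used as deposited in a single table of regions. The authors aligned reads to hg18 with Bowtie, retained unique reads, removed duplicates with SAMtools, sampled libraries to equal size, called peaks with MACS and compared replicates by the irreproducible discovery rate (IDR). The deposited read counts are whole reads per region from merged replicates, and whether they precede the sampling is not stated. The deposited fold enrichment is a ratio to input, and the deposited pileup is a coverage signal at the summit. The deposited IDR is a fraction and the deposited FDR a q-value, both used by the authors at a threshold of 0.05. The deposited signal values, 2 per subunit, are a score whose scale and replicate order are not stated. Distances to genes and TSS are the authors', from Ensembl version 54.

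Calls were taken from regions with a listed fold enrichment. Regions are shown by position in the hg18 table, and gene names come from 2062 identifiers named in the study's supplementary tables. Log2 signal values were tested with limma 3.58.1 (R 4.3.3) for p52 against p50, RelB against p52 and RelB against p50 in all regions called for both, after median centring, with Benjamini-Hochberg adjustment at 0.05. The authors' replicates are biological. Shares of reads have Wilson 95% intervals, which cover counting error only. The fit was tested on simulated data. Regions described in full were, for each gene, the strongest of each subunit, the closest to the TSS, those with RelB without p50 and p52, and those past the limma threshold. Genes most like each member were found by Euclidean distance over 4 percentages. Members and lists were chosen with earlier results of these data known. Alternatives were stricter IDR, FDR and enrichment thresholds, assignment by gene or TSS alone, pileup or scaled reads, quantile normalization and leaving out each signal value. Calculations used pandas 2.3.3, numpy 2.4.6, scipy 1.17.1 and matplotlib 3.10.9 in Python 3.11.15.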

Additional observations from a re-analysis of the deposited data

How the results depend on the processing

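Over the 3 genes, the alternatives gave 17 to 24 regions, 14 to 16 p50 calls, 15 to 19 p52 calls and 0 RelA calls. The share of regions with both p50 and p52 ranged from 54.2% to 57.9%, and was 70.6% under the IDR limit of 0.001. The share over all regions at that limit was not computed, so the rise is not known to be particular to these genes. The median distance to the closest TSS was 65.9 kb, and 63.1 kb with assignment by closest gene alone or by closest TSS alone. It was not computed under the other alternatives. No listed IDR exceeded 0.0099981, so the planned limit of 0.01 changed nothing, and a limit of 0.001 was chosen after seeing the data. Under it the RelB calls at the 3 genes dropped from 9 to 3, and at ETV6 from 4 to 1. The drop over all regions at this limit was not computed, so it is not known to be particular to these genes. The median log2 ratio of p52 to p50 enrichment reversed to -0.034 with scaled read counts. The limma counts depended on the scaling and on single values, and the cause was not tested. Under quantile normalization, the regions higher for p52 than p50 went from 338 to 224, with 0 in place of 1 member. Those higher for RelB than p52 went from 99 to 44 and the reverse from 18 to 11, and those higher for p50 than RelB went from 35 to 81. With a fold enrichment of at least 5 for both subunits, 0 regions were called in either direction for RelB against p52, and 1 was higher for RelB and 0 for p50 in RelB against p50. Leaving out each signal value in turn gave 0 to 221 regions higher for p52 than p50 and 0 to 309 higher for p50 (359 with all values), both at 0 without either p50 value, and 0 to 1 member higher for p52. It gave 31 to 478 higher for RelB than p52 and 0 to 301 for the reverse, with the highest counts without the second RelB value. It gave 3 to 571 higher for RelB than p50 (64 with all values) and 0 to 340 for the reverse. Among members, 0 to 1 were higher for RelB than p50, the RUNX3 region 35.002 kb downstream without either RelB value, and 0 to 1 higher for p50, the first upstream RUNX3 region without the first RelB value. In these fits the lone value of a subunit is assumed to vary like the others. At RUNX1 alone, assignment by closest gene left 5 regions and by closest TSS 4. No paired analysis was possible because the signal columns are not tied to replicate numbers. Counts of reads were lowest for RelA and RelB, and whether depth limits their calls was not tested.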
